A study of Mus musculus with 12 samples.

Results

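The HoxC cluster is 1 of the 4 clusters of homeobox genes of the mouse, and its 9 members Hoxc13, Hoxc12, Hoxc11, Hoxc10, Hoxc9, Hoxc8, Hoxc6, Hoxc5 and Hoxc4 are described here in their order along the chromosome, from the 5′ to the 3′ end of the cluster. They were taken by symbol, and each of the 9 was found as 1 of the 20325 gene rows of every library. The study sequenced polyadenylated RNA of mouse embryonic fibroblasts (MEFs) and of MEFs on day 4 of reprogramming to induced pluripotent stem cells, in 12 libraries, 2 in each of 6 groups. All cells carried floxed alleles of AF10 (AF10 fl/fl), an OSKM cassette for the reprogramming factors and rtTA, which switches such a cassette on in doxycycline. AF10, which the gene Mllt10 encodes, works with DOT1L, the enzyme that methylates lysine 79 of histone H3 in transcribed genes. MEF_fl received an empty adenovirus and MEF_creAF10 an adenovirus that makes Cre recombinase, which cuts out the floxed part of AF10. Day4_fl_DMSO and Day4_creAF10_DMSO went through the same infections and then, 2 days later, were put into 2 µg/mL doxycycline with the vehicle DMSO. Day4_fl_SGC and Day4_creAF10_SGC received 5 µM of the DOT1L inhibitor SGC0946 in place of the vehicle. Cre was given only to cells with floxed alleles, so effects of the deletion and of the virus that carries Cre cannot be told apart. The day 4 cells were grown on DR4 feeder MEFs in embryonic stem cell medium, so stage, doxycycline, medium and feeder cells cannot be told apart either, and reads of feeder cells were counted with the rest.

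Hox genes encode homeodomain transcription factors that give cells their position along the head to tail and limb axes of the embryo. Genes at the 3′ end of a cluster, such as Hoxc4 and Hoxc5, are switched on earlier and further forward, and those at the 5′ end, such as Hoxc12 and Hoxc13, later and further back. Fibroblasts keep a Hox pattern of the place in the body they came from, and in leukaemias with rearranged MLL the upkeep of HoxA genes depends on DOT1L and AF10.

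For the 3′ end of the cluster a promoter sequence was at hand, and it is shown because Hoxc4 is among the members that fell in SGC0946 with AF10 deleted in a fit paired by source. Of the 9 members, 1 had an entry in the RefSeq promoter table of build GRCm38.p6, and these are the 250 bases before the RefSeq start of Hoxc4 on the plus strand, chr15:103034145-103034394, with the bases GGGCGG in capitals.

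Hoxc4: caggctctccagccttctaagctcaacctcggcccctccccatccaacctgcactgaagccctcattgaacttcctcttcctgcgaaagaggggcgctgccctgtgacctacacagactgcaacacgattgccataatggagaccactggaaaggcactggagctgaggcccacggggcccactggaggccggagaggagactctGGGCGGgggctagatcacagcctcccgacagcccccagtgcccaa

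This stretch was 62% G and C and held 8 CpG dinucleotides. GGGCGG, the core of a GC box, occurred 1 time, 45 bases before the start, and 32.7% of the 32851 promoters of the table held it on either strand. The TATA box letters TATAAA (held by 12.4% of promoters), CCAAT (33.8%) and TGATTNAT, the form of site that Hox and PBX proteins bind together (2.82%), were not among these letters on either strand. The files use build mm9, and whether the counted Hoxc4 transcript starts at this place was not tested.

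Library totals were 14602536 to 22800753 expected counts, and the members had from 0 (Hoxc12) to 404 (Hoxc6) of them. The tests below come from 3 edgeR fits, with DESeq2 beside them. In the first, each group has 1 term and the spread is that between its 2 libraries. Replicates 1 and 2 were distinct sources of cells in all 6 groups, as told by Y-linked genes, so further fits took the source out, one with 1 replicate block over all groups and one with a block within each stage, which is called the paired fit here. These ask whether a change was alike in both sources, with an error shared across genes, and none of the fits measures the spread among many animals. The paired fit made the most calls within a stage. The 10 fibroblast markers summed to 49968 to 66512 CPM (counts scaled to a common library size) in the MEF libraries and to 21870 to 23401 CPM in the day 4 libraries. The 6 markers of pluripotent cells summed to at most 3.10 CPM in any library. The log2 change of Mllt10 with deletion was -0.34 in MEFs, -0.44 on day 4 in DMSO and -0.42 on day 4 in SGC0946 (paired fit; not passed in the other edgeR fits), so most Mllt10 reads remained.

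HoxC transcripts were present in MEFs at low to moderate levels. Hoxc6, Hoxc10 and Hoxc8 were highest in MEF_fl, with means of 11.2, 7.38 and 6.82 FPKM. Hoxc9, between Hoxc10 and Hoxc8, had 3.065 FPKM there. Per transcript length, Hoxc6 was the most abundant member over the 12 libraries with a mean of 7.28 FPKM, followed by Hoxc10 with 5.93, Hoxc8 with 4.79, Hoxc9 with 2.36, Hoxc4 with 2.08 and Hoxc5 with 1.01 FPKM. In the SGC0946 groups Hoxc10 and Hoxc6 were level within their spread, with means of 4.15 and 4.07 FPKM with AF10 intact and 3.89 and 3.77 FPKM with AF10 deleted. Hoxc11, Hoxc13 and Hoxc12, 3 of the 4 most 5′ members, had means of 0.699, 0.527 and 0.300 FPKM. Hoxc10, a gene of the hindlimb and lumbar region, stood out at the 5′ end, with 3.62 to 8.90 FPKM against 0 to 1.44 FPKM for the 3 members on its 5′ side.

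Hoxc6, a gene of the thoracic region, had 13.7 and 8.76 FPKM in MEF_fl and 12.7 and 10.7 in MEF_creAF10, replicate 1 first. It had 8.04 and 5.31 FPKM in Day4_fl_DMSO, 6.63 and 5.78 in Day4_creAF10_DMSO, 4.94 and 3.20 in Day4_fl_SGC, and 4.44 and 3.09 in Day4_creAF10_SGC. The level thus stepped down from MEFs to day 4 in DMSO to day 4 in SGC0946, while the fl and AF10-deleted groups overlapped at each step. Hoxc10, Hoxc9, Hoxc8, Hoxc5 and Hoxc4 had the same order of these 3 conditions in their group means in both genotypes, Hoxc8 with 6.82 and 6.67 FPKM in MEF_fl and MEF_creAF10, 4.31 and 4.87 in the DMSO groups and 3.10 and 2.96 in the SGC0946 groups. With AF10 intact the FPKM of neighbouring conditions overlapped for Hoxc8, Hoxc9 and Hoxc4. Hoxc4 had 2.90 and 2.26 in MEF_fl, 2.37 and 1.82 in Day4_fl_DMSO and 1.85 and 1.14 in Day4_fl_SGC. Hoxc9 had 4.05 and 2.08 in MEF_fl and 2.57 and 1.75 in Day4_fl_DMSO. For Hoxc10 MEF_fl (8.48 and 6.27) and Day4_fl_DMSO (6.19 and 6.63) overlapped in FPKM, though not in CPM. For Hoxc9 the group means in Day4_fl_DMSO and Day4_fl_SGC were 2.16 and 2.13 FPKM, which differ by less than the spread between their libraries.

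**Figure D1:**
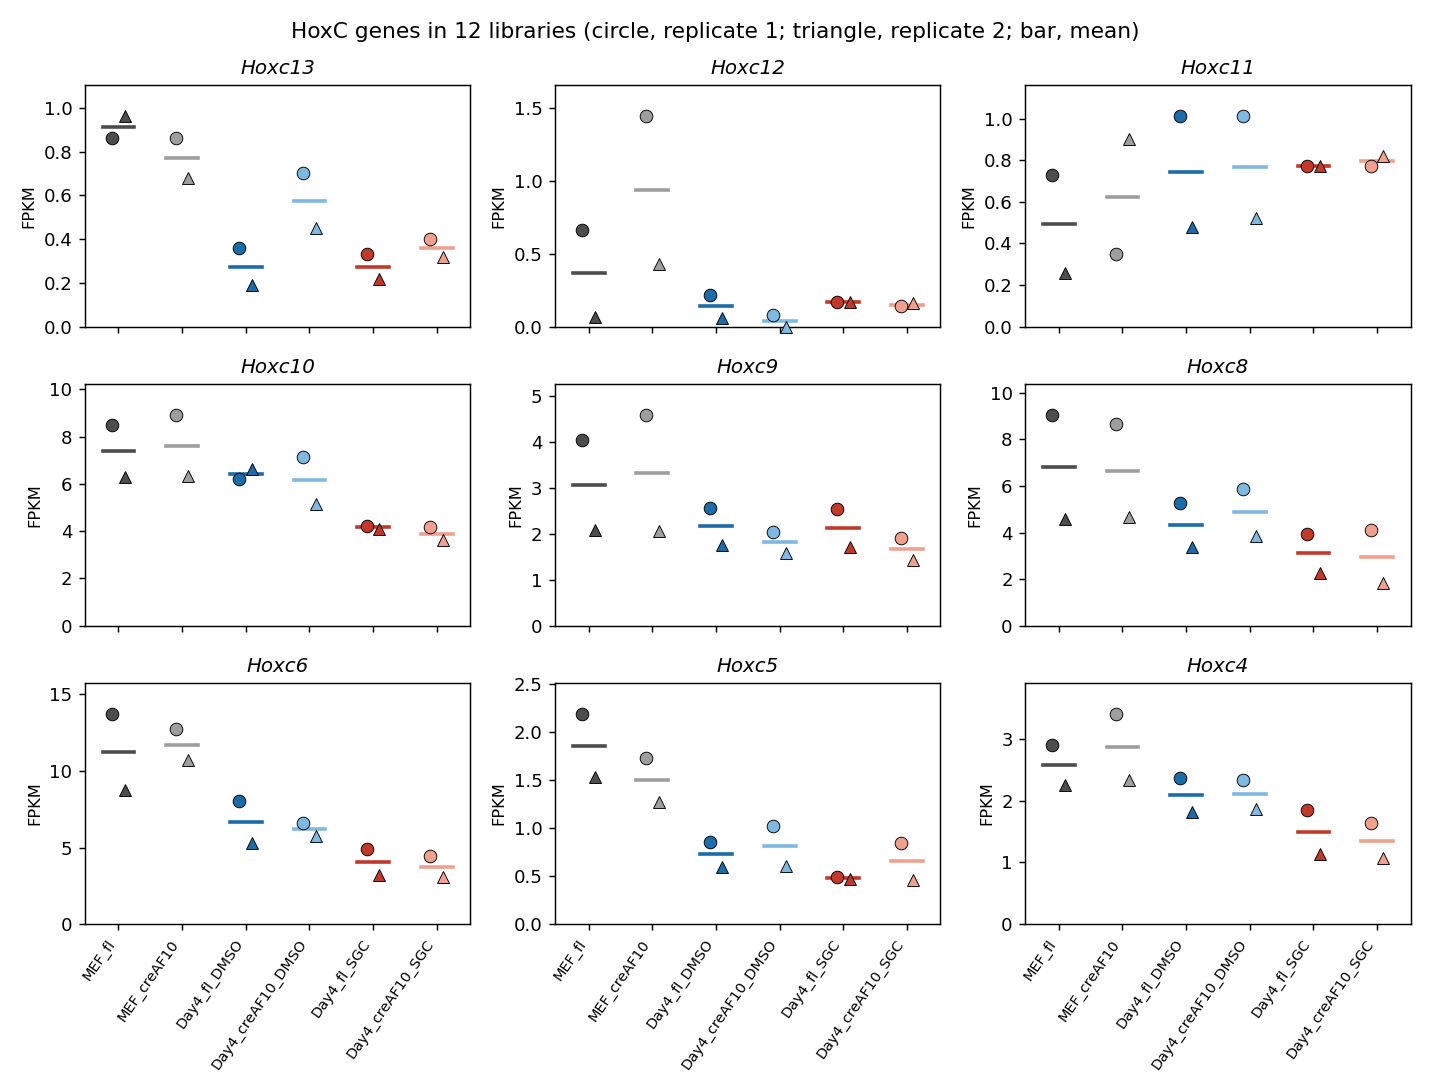
Deposited FPKM of the 9 HoxC genes in the 6 groups, 1 panel a gene in the order of the cluster, with its own vertical axis from 0. Circles are replicate 1, triangles replicate 2 and bars the mean of both. The means of Hoxc10, Hoxc9, Hoxc8, Hoxc6, Hoxc5 and Hoxc4 step down from MEFs to DMSO to SGC0946 in both genotypes, least for Hoxc9 from 2.16 to 2.13 FPKM with AF10 intact, and Hoxc11, Hoxc12 and Hoxc13 stay at or below 1.44 FPKM.

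On day 4 in DMSO, Hoxc5 and Hoxc6 were lower than in MEFs in both genotypes, and Hoxc13 with AF10 intact. In 4 of 4 matched pairs (2 sources, AF10 intact or deleted) Hoxc13, Hoxc10, Hoxc9, Hoxc8, Hoxc6, Hoxc5 and Hoxc4 were lower on day 4, and Hoxc11 was lower in 1 of 4. The share of all genes lower in 4 of 4 pairs was not computed. In the first fit 6845 and 6819 of 13936 genes had negative changes with AF10 intact and deleted. Hoxc5, a cervical to thoracic gene, had 6.64 and 4.43 CPM in MEF_fl and 2.30 and 1.60 in Day4_fl_DMSO, with no overlap. Its log2 change was -1.51 ± 0.38 (SE; adjusted p = 0.0082, first fit) with AF10 intact and -1.03 ± 0.39 (adjusted p = 0.0448) with AF10 deleted. Hoxc6 had 23.9 and 14.6 CPM in MEF_fl against 12.3 and 8.11 in Day4_fl_DMSO, again with no overlap. Its changes were -0.92 ± 0.31 (adjusted p = 0.0317) and -1.06 ± 0.31 (adjusted p = 0.0172).

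Hoxc13, the most 5′ member and a regulator of hair and nail keratins, fell with AF10 intact, from 2.31 and 2.49 CPM to 0.862 and 0.458 CPM, a log2 change of -1.87 ± 0.40 (adjusted p = 0.0032, first fit). With AF10 deleted it had 2.29 and 1.75 CPM in MEFs and 1.65 and 1.06 CPM on day 4, a change of -0.57 ± 0.38 that did not pass (adjusted p = 0.222). These values rest on 10 to 41 counts per library. The difference between the 2 genotypes did not pass when it was tested (1.30 ± 0.55, adjusted p = 1.00 without pairing and 0.165 with a block per stage).

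In all, the first fit called 3 of 8 members tested lower with AF10 intact, where 26.3% of all genes were lower, and 2 of 8 with AF10 deleted, where 27.5% were. Pairing by source with 1 replicate block raised these counts to 6 of 8 (30.2% of genes) and 6 of 8 (31% of genes), and a block per stage to 7 of 8 (34.3%) and 6 of 8 (34.8%). With 1 block the further calls in both genotypes were Hoxc9 (-0.64 and -0.94), Hoxc8 (-0.79 and -0.56) and Hoxc4 (-0.46 and -0.57), with adjusted p of 0.0492 or less. Hoxc13 was the sixth with AF10 intact, and Hoxc10, at -0.45 ± 0.17 (adjusted p = 0.0397), with AF10 deleted. Hoxc10 changed less than its neighbours Hoxc9 and Hoxc8, at -0.34 ± 0.17 with AF10 intact (adjusted p = 0.107), but the difference between members was not tested. The fibroblast marker sum was lower on day 4 as well. Markers of macrophages and blood cells (8 genes) summed to 5.29 to 12.8 CPM in MEFs and 49.4 to 73.3 on day 4, and those of endothelium (5 genes) to 18.9 to 21.7 and 81.8 to 123 CPM. Most of the endothelial sum was Tek, with 14.5 to 17.0 CPM in MEFs and 80.4 to 122 on day 4. Kdr was lower on day 4, at 0.279 to 0.987 against 2.91 to 4.92 CPM. In DMSO against MEFs 1 of 3 endothelial genes tested had a positive change in each genotype. Laptm5 made up most of the macrophage and blood sum on day 4, at 36.1 to 57.5 against 0.303 to 1.30 CPM. Of the 7 genes tested in that list, 6 had positive changes in each genotype. The part of these cell types in the HoxC changes was not tested. In bulk RNA, fewer cells with a transcript and less of it per cell cannot be told apart.

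Hoxc12 and Hoxc11 were near the limit of counting. Hoxc12 failed the filter on low counts and has no test: it had 38 counts in the 4 MEF libraries together and 13 in the 8 day 4 libraries, with 0 in Day4_creAF10_DMSO replicate 2, where 3 counts, the upper limit that a count of 0 allows, would be 0.168 CPM. Hoxc11 had 39 counts in the 4 MEF libraries and 88 in the 8 day 4 libraries. Its changes from MEFs of 0.38 ± 0.60 and 0.01 ± 0.61 with 1 replicate block were smaller than their errors.

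**Figure D2:**
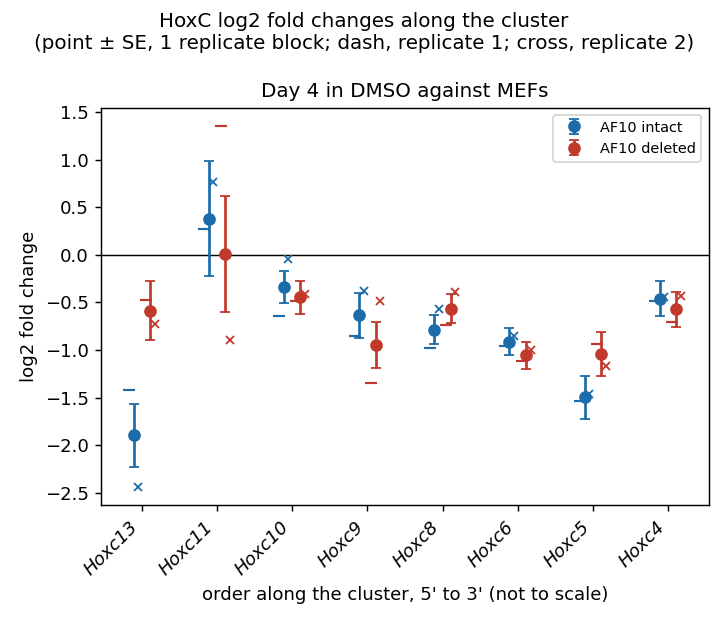
Log2 fold change of the 8 HoxC genes tested between day 4 in DMSO and MEFs, along the cluster, with AF10 intact (blue) or deleted (red). Points and bars are the estimate and its SE with 1 replicate block, dashes the change within replicate 1 and crosses within replicate 2. All points except those of Hoxc11 lie below 0, and Hoxc13 is at -1.90 with AF10 intact and -0.59 with AF10 deleted.

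On day 4, Hoxc10, Hoxc8, Hoxc6 and Hoxc4 were lower in SGC0946 than in DMSO within each source. Hoxc9 and Hoxc5 had the same sign in each source but passed in no edgeR fit, Hoxc9 with paired changes of only -0.02 and -0.14. The share of all genes with such a common sign was not computed. The first fit called 0 of 8 members in either genotype. The paired fit called Hoxc6, Hoxc10 and Hoxc8 in both genotypes, and Hoxc4 with AF10 deleted only. Hoxc6 had 12.3 and 8.11 CPM in Day4_fl_DMSO and 7.52 and 4.88 in Day4_fl_SGC, and with AF10 deleted 10.2 and 8.83 CPM in DMSO and 6.74 and 4.66 in SGC0946. Both SGC0946 libraries lay below both DMSO libraries in each genotype. In the paired fit with a block per stage the level in SGC0946 was 61.0% of that in DMSO with AF10 intact, a log2 change of -0.71 ± 0.15 (adjusted p = 0.0011), and 59.4% with AF10 deleted, -0.75 ± 0.15 (adjusted p = 0.0020).

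Hoxc10 had 9.94 and 10.6 CPM in Day4_fl_DMSO against 6.73 and 6.52 in Day4_fl_SGC, and 11.5 and 8.27 CPM against 6.63 and 5.73 with AF10 deleted. The groups did not overlap, and the paired fit gave -0.64 ± 0.15 (adjusted p = 0.0024) and -0.66 ± 0.15 (adjusted p = 0.0049). Hoxc8, another thoracic gene, had 12.1 and 7.75 CPM against 9.05 and 5.14 with AF10 intact, and 13.5 and 8.88 against 9.38 and 4.14 with AF10 deleted. Here the groups overlapped between sources, while within each source SGC0946 was lower, and the paired changes were -0.50 ± 0.15 (adjusted p = 0.0163) and -0.75 ± 0.14 (adjusted p = 0.0010). Hoxc4 had 4.54 and 3.48 CPM against 3.53 and 2.17 with AF10 intact, and 4.49 and 3.59 against 3.12 and 2.01 with AF10 deleted. It passed with AF10 deleted (-0.66 ± 0.21, adjusted p = 0.0482) and not with AF10 intact (-0.50 ± 0.20, adjusted p = 0.0888).

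Counts of calls depended on the pairing. The first fit (edgeR) called 0 of 8 members lower with AF10 intact, where 0.23% of genes were, and 0 of 8 with AF10 deleted, where 0% were. At an unadjusted p under 0.05 it found 1 of 8 members in each, beside 1856 and 955 of all 13936 genes, and DESeq2 called 0 members in both. With 1 replicate block the counts were 1 (1.77% of genes) and 0 (0.158%), and with a block per stage 3 of 8 (7.1% of genes) and 4 of 8 (2.47%). With 1 block the call was Hoxc6 with AF10 intact (adjusted p = 0.021), and the other values called with a block per stage had adjusted p of 0.0566 to 0.2002. Over the 8 members the median log2 change was -0.48 with AF10 intact and -0.65 with AF10 deleted in the first fit, against -0.01 and -0.0038 over all genes tested.

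In 4 of 4 matched pairs Hoxc10, Hoxc9, Hoxc8, Hoxc6, Hoxc5 and Hoxc4 were lower in SGC0946. These pairs come from 2 sources, and the share of all genes lower in 4 of 4 was not computed. In the first fit 7203 and 7099 of 13936 genes had negative changes with AF10 intact and deleted. The change of Hoxc9, which lies between Hoxc10 and Hoxc8, lay between -0.17 and -0.02 in the matched pairs. Its paired estimates were -0.02 ± 0.20 and -0.14 ± 0.21, with 95% intervals of -0.42 to 0.38 and -0.58 to 0.29, which overlap that of Hoxc8 with AF10 intact, -0.80 to -0.20. Hoxc5 gave -0.60 ± 0.28 (adjusted p = 0.154) and -0.32 ± 0.26 (adjusted p = 0.554). At 19 to 41 counts per library on day 4 its intervals reached from -1.19 to -0.02 and from -0.86 to 0.22. Hoxc13 and Hoxc11, with at most 25 counts per day 4 library, had estimates between -0.68 and 0.08 with SE of 0.35 to 0.52, so a change of the size seen in Hoxc6 was not detectable at this depth. Whether Hoxc9 differed from its neighbours was not tested.

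The fibroblast marker sums were 23128 and 22576 CPM in Day4_fl_DMSO and 23401 and 22211 in Day4_fl_SGC, and 21870 and 22034 against 22991 and 22173 with AF10 deleted. With AF10 intact the DMSO and SGC0946 libraries overlapped, and with AF10 deleted both SGC0946 sums were slightly higher. The sums of the 4 keratinocyte markers were higher in both SGC0946 libraries in each genotype, 4.37 and 4.99 CPM against 5.29 and 6.72 with AF10 intact, and 5.74 and 5.08 against 6.08 and 6.92 with AF10 deleted. With AF10 intact Krt1 went from 0.402 and 0.596 to 1.31 and 2.37 CPM, and Krt10 had 3.85 and 4.13 against 3.85 and 3.95. Of the 3 keratinocyte genes tested, 2 had negative changes with AF10 intact and 0 with AF10 deleted in the first fit. The sums of the 6 pluripotent markers were 1.16 and 0.721 CPM against 3.10 and 1.84 with AF10 intact. With AF10 deleted they overlapped, at 2.10 and 0.223 CPM against 2.10 and 1.93. Only 1 of these 6 genes was tested, and it was not called in any edgeR fit in either genotype. The macrophage and endothelial sums overlapped between DMSO and SGC0946 in each genotype, while 2 of the 7 macrophage and blood markers tested fell with AF10 intact in the paired fit. Of the 10 fibroblast markers, 4 rose and 1 fell in SGC0946 with AF10 intact in the paired fit, and 3 rose with AF10 deleted, and 0 of them passed in the other edgeR fits. The part of these cell types in the HoxC changes was not tested.

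**Figure D3:**
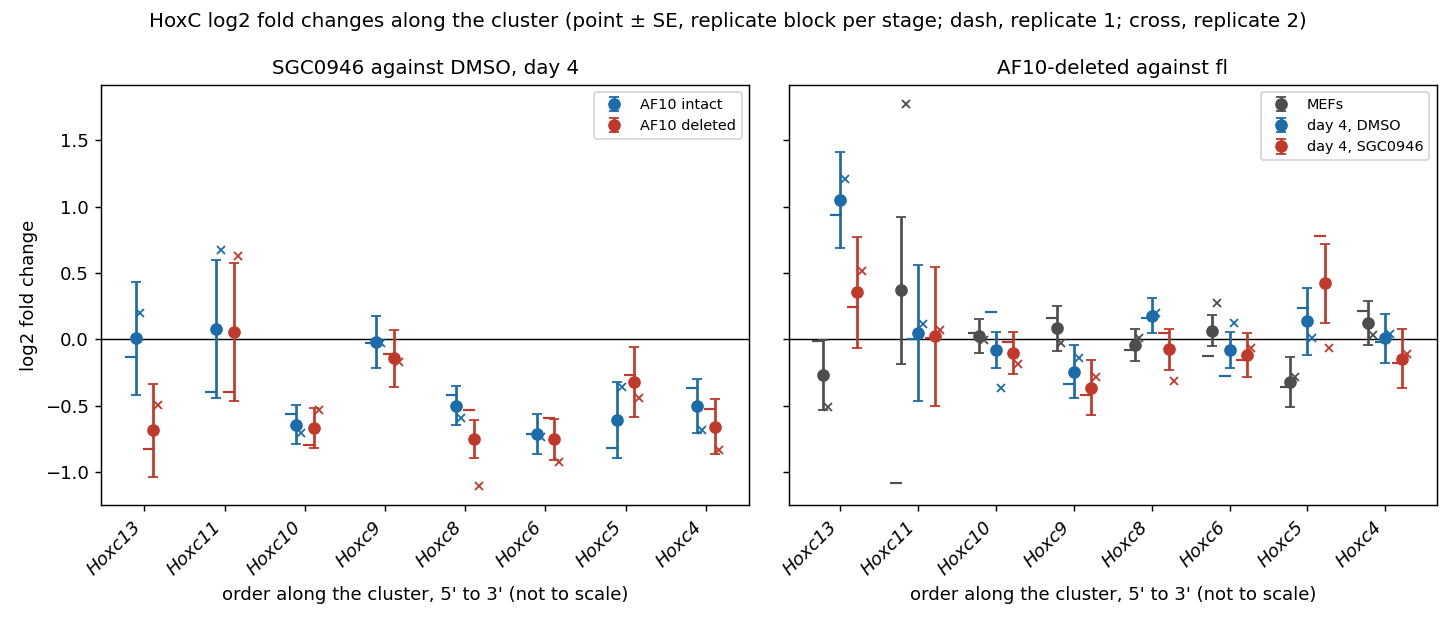
Log2 fold changes of the 8 HoxC genes tested along the cluster, for SGC0946 against DMSO on day 4 (left) and AF10-deleted against fl cells (right). Points and bars are the estimate and its SE with a replicate block per stage, dashes the change within replicate 1 and crosses within replicate 2. On the left Hoxc10, Hoxc8, Hoxc6 and Hoxc4 lie between -0.75 and -0.50 in both genotypes and Hoxc9 at -0.02 and -0.14, and on the right the points scatter around 0 apart from Hoxc13 in DMSO.

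Deletion of AF10 changed no HoxC member beyond the test's threshold, in MEFs or on day 4. edgeR called 0 of 8 members in MEFs, where it called 0% of all genes without pairing and 0.962% with a block per stage. It called 0 of 8 on day 4 in DMSO (0% and 6.74% of genes) and 0 of 8 on day 4 in SGC0946 (0% and 0.172%). At an unadjusted p under 0.05 the first fit had 0, 1 and 0 members, beside 300, 988 and 251 of all 13936 genes, and DESeq2 called 0 members in each. For Hoxc6 the mean level was 19.3 ± 6.59 CPM (SD, n = 2) in MEF_fl against 19.8 ± 3.03 CPM after deletion, and 10.2 ± 2.95 and 9.49 ± 0.939 in the DMSO groups. The paired 95% intervals of the deletion effect for Hoxc6 were -0.18 to 0.31 in MEFs, -0.36 to 0.21 in DMSO and -0.46 to 0.22 in SGC0946. For Hoxc10, Hoxc8 and Hoxc6 in these 3 settings the widest paired interval reached 0.34 to either side of its estimate. Without pairing the intervals were wider. For Hoxc8 they were -1.26 to 1.14 in MEFs, -1.06 to 1.41 in DMSO and -1.35 to 1.23 in SGC0946 in the first fit.

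The 1 member with an unadjusted p under 0.05 was Hoxc13 on day 4 in DMSO, higher with AF10 deleted. It had 0.862 and 0.458 CPM in Day4_fl_DMSO (15 and 10 counts) and 1.65 and 1.06 CPM in Day4_creAF10_DMSO (25 and 19 counts). The groups did not overlap and the log2 change was 1.05, with changes of 0.94 and 1.21 in the 2 sources, but the adjusted p was 0.678 without and 0.0803 with pairing. In SGC0946 the same contrast was 0.785 and 0.527 CPM against 0.932 and 0.755, and in MEFs 2.31 and 2.49 against 2.29 and 1.75 CPM. Hoxc9 had the lowest estimates on day 4, -0.24 ± 0.20 in DMSO and -0.36 ± 0.21 in SGC0946 in the paired fit, and it was lower with deletion in 5 of 6 matched pairs. The share of all genes lower in that many pairs was not computed.

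With AF10 deletion together with SGC0946, set against untreated fl cells (Day4_creAF10_SGC against Day4_fl_DMSO), Hoxc10, Hoxc8, Hoxc6 and Hoxc4 were lower in the paired fit. This comparison shares its control libraries with that of SGC0946 with AF10 intact. Hoxc6 was at 56.2% of the untreated level (-0.83 ± 0.15), Hoxc10 at 59.7% (-0.74 ± 0.15), Hoxc4 at 63.9% (-0.65 ± 0.20) and Hoxc8 at 67.3% (-0.57 ± 0.14), each past the threshold in the paired fit with adjusted p of 0.0203 or less. The first fit called 0 of 8 members lower (0.538% of genes; 2 at an unadjusted p under 0.05; DESeq2 0), the fit with 1 replicate block 3 of 8 (2.88%) and that with a block per stage 4 of 8 (9.25%). The interaction, which tests whether the SGC0946 effect differed between fl and AF10-deleted cells, passed for 0 of 8 members without pairing, where 0% of genes passed, and for 0 of 8 with a block per stage, where 0.395% did. No member had an unadjusted p under 0.05 for it, and DESeq2 called 0. For Hoxc6 the interaction was -0.04 with a 95% interval of -0.48 to 0.41, and for Hoxc8 -0.25 with an interval of -0.67 to 0.17.

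The 2 sources of cells differed in HoxC level in every group. The 9 members summed to 42.6 FPKM in replicate 1 and 26.8 in replicate 2 of MEF_fl, and to 26.9 and 20.2 in Day4_fl_DMSO. In Day4_creAF10_SGC, the lowest group, the sums were 18.4 and 12.8, and replicate 1 had the higher sum in 6 of 6 groups. Among the 8 members that passed the filter the median ratio was highest for Hoxc8, at 1.85 (1.52 to 2.27 over the 6 groups). Replicate 1 was also higher in 6 of 6 groups for Hoxc9, Hoxc6, Hoxc5 and Hoxc4, with median ratios of 1.43 to 1.48. It was higher in 5 of 6 for Hoxc10 (median ratio 1.27) and Hoxc13, and in 3 of 6 for Hoxc11, whose ratios spread from 0.406 to 2.93 at 4 to 18 counts per library. The share of all genes that were higher in replicate 1 in 6 of 6 groups was not computed. With 1 source per replicate number, the source, its sex and the place in the embryo cannot be told apart, and no test was made.

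**Figure D4:**
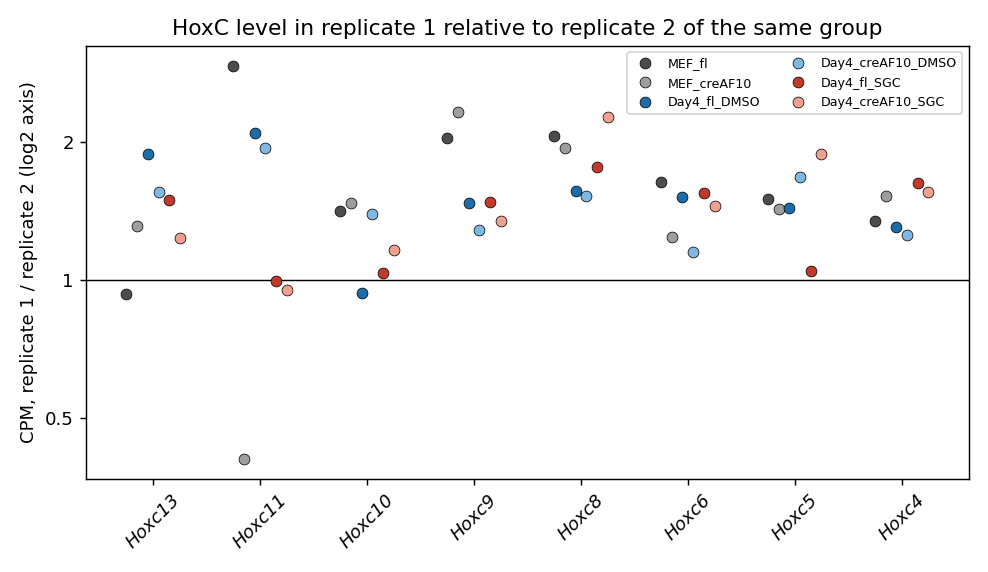
Ratio of CPM in replicate 1 to replicate 2 of the same group, on a log2 axis, for the 8 HoxC genes that passed the filter, with 1 point for each of the 6 groups. All points of Hoxc9, Hoxc8, Hoxc6, Hoxc5 and Hoxc4 lie above 1, and those of Hoxc8 between 1.52 and 2.27.

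The other Hox clusters, counted in the same way, also held members that were lower in SGC0946. In the paired fit with a block per stage, 3 of 11 HoxA, 3 of 8 HoxB and 5 of 8 HoxD genes fell with AF10 intact, and 3, 3 and 6 with AF10 deleted, where 7.1% and 2.47% of all genes fell. With 1 replicate block the counts were 1, 2 and 4, and 0, 1 and 1, and in the first fit 0, 0 and 1, and 0, 0 and 0. Their median changes with AF10 intact in the first fit were -0.03, -0.60 and -0.47, against -0.48 in HoxC. The most changed was Hoxd12, at -2.45 ± 0.20 (adjusted p = 0.0196 in the first fit). Hoxd12 (-0.75 ± 0.15, adjusted p = 0.0039) and Hoxd13 (-0.33 ± 0.07, adjusted p = 0.0042) fell with AF10 deletion on day 4 in DMSO in the paired fit, where 6.74% of all genes passed, and 0 HoxD genes passed in either other edgeR fit. Whether the clusters differed was not tested.

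Of 11 transcripts listed as lying in or beside the HoxC cluster, 7 were in the files. With AF10 intact, 1 of the 7 fell in SGC0946 in the paired fit, Cbx5, a heterochromatin protein gene, at -0.26. With AF10 deleted 2 fell, Atp5g2, a subunit of the ATP synthase, at -0.34 and Hnrnpa1, a splicing factor, at -0.24. None of these 3 passed in the other edgeR fits. Over all genes 7.1% fell in the paired fit with AF10 intact and 2.47% with AF10 deleted. On day 4 in DMSO against MEFs, Atp5g2, Hnrnpa1 and Calcoco1 rose in both genotypes in the first fit, by 0.92, 0.69 and 0.57 with AF10 intact. Nfe2 fell in both, and Copz1 with AF10 intact. Of all 13936 genes, 3588 rose and 3659 fell in that fit with AF10 intact, and 3833 and 3832 with AF10 deleted.

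Homeodomain proteins of the TALE class, MEIS, PBX and PKNOX, bind DNA together with Hox proteins. Of their 9 genes, 3 rose in SGC0946 with AF10 intact in the paired fit, Pknox2 by 0.66, Meis3 by 0.39 and Pbx3 by 0.26, and 1 fell, Meis2, at -0.39. In that fit 1480 of 13936 genes rose, and of these TALE calls 1 was left with 1 replicate block and 0 in the first fit. With AF10 deleted Meis2 passed in the paired fit and not in the others, at -0.38 ± 0.10 (adjusted p = 0.0115). Among 23 regulators of Hox chromatin in the files, of which 21 were tested, Cbx7 rose by 0.43 and Suz12 fell by 0.21 in SGC0946 with AF10 intact. Both are parts of Polycomb complexes, and none of the 21 passed with AF10 deleted. Cbx7 and Suz12 passed in the paired fit and not in the other edgeR fits. In the paired fit with AF10 intact 1480 of 13936 genes rose and 990 fell. On day 4 in DMSO against MEFs, Meis3 and Pknox2 fell in both genotypes in the first fit, at -0.67 and -2.12 with AF10 intact, and Pbx3 and Pbx4 rose with AF10 deleted, by 0.58 and 1.74. With AF10 deletion on day 4 in DMSO, Pbx3 rose by 0.29 and Cbx7 by 0.34 in the paired fit, and neither passed in the other edgeR fits. For that deletion 6.74% of all genes passed in either direction in the paired fit. Dot1l itself had 52.7 to 59.8 CPM in the DMSO groups and 58.3 to 71.3 CPM in the SGC0946 groups, which did not pass the test.

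Across the 8 day 4 libraries, each centred on the mean of its source, the genes outside the Hox clusters whose log2 CPM followed that of Hoxc6 most closely were Kctd15 (Pearson r = 0.993), Zfp512 (0.993), Lrig3 (0.990), Tdh (0.989) and Dpt (0.989). Within the cluster Hoxc4 (0.975), Hoxc8 (0.918) and Hoxc10 (0.864) followed it most closely, then Hoxc5 (0.613), Hoxc9 (0.415), Hoxc13 (0.259) and Hoxc11 (-0.317). Among all 13936 genes kept, Hoxc4 ranked 18, Hoxc8 190, Hoxc10 512, Hoxc5 2495 and Hoxc9 4153 in closeness to Hoxc6. Such values are descriptions over 8 libraries that share treatments and sources.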

How the data were processed

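Libraries were made from polyadenylated RNA with the TruSeq RNA kit V2, which does not mark strand, so reads of antisense transcripts cannot be told apart. Per the submitters' processing notes, the authors used RSEM and Bowtie with build mm9; versions and options are not given in the sources used here. Each deposited table gives, per the file headers, an expected count, a TPM and an FPKM per gene. RSEM splits reads shared between genes, and the files list 1 transcript for each HoxC gene. The deposited FPKM values were used to describe levels by group and to compare them between genes, and the deposited TPM values were copied only.

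Expected counts were rounded, and filterByExpr (minimum count 10, minimum total 15) kept 13936 genes, including 8 of the 9 members. CPM used TMM-scaled totals. Tests used edgeR 4.0.16 (R 4.3.3): quasi-likelihood F test, 1 fit over 12 libraries with a term per group, Benjamini-Hochberg adjustment over all genes kept, called under 0.05. DESeq2 1.42.0, its size factors, no filter, only the groups compared, leaving out each library, and replicate blocks were alternatives. The fits were also run on simulated counts, with 1 source effect shared by all groups and a spread set near that of the paired fit. That setting favours the paired fits, so nothing is concluded from it here. Deviations of same-numbered libraries from their group means correlated at 0.286 to 0.737 over 15 pairs of groups, and Y-linked genes were high in each replicate 1 library and near 0 in each replicate 2 library, so the numbers pair the libraries. The labels do not name these sources. Day 4 was compared with MEFs with 1 block, since a block per stage also takes out disagreement between sources. The common spread over all genes (biological coefficient of variation) was 0.148 between libraries of a group without pairing. With a block per stage it was 0.0549, which is what remains once the source difference is taken out. That fit has 4 residual and a median of 22.4 prior degrees of freedom. The difference of the deletion effect between stages was added after the data were seen. All 9 members are described, and other genes are named only where they passed the test in their list; not every such gene is reported here. The members and lists were chosen with earlier results of these data known.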

Additional observations from a re-analysis of the deposited data

How the results depend on the processing

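Hoxc11, Hoxc12 and Hoxc13 had at most 41 counts in any library, and each group had 2 libraries. The replicate block moved most counts of members called lower. With 1 replicate block these were 3 for AF10 deletion plus SGC0946, 1 for SGC0946 with AF10 intact, and 6 and 6 for day 4 against MEFs with AF10 intact and deleted. With a replicate block per stage they were 4, 3, 7 and 6, and 4 for SGC0946 with AF10 deleted, against 0, 0, 3 and 2, and 0, in the first fit. For day 4 against MEFs with AF10 deleted, DESeq2 and the fit of only the groups compared each gave 1 in place of 2. The cause of these moves was not tested. DESeq2's size factors and no filter on low counts left each count within 1.5 times of the first.

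Leaving out 1 library at a time gave 1 to 3 members called for day 4 against MEFs with AF10 intact, with 1 left without MEF_fl replicate 1 and without Day4_fl_DMSO replicate 2. With AF10 deleted the range was 0 to 4. It was 0 without MEF_creAF10 replicate 1 and without Day4_creAF10_DMSO replicate 2, 1 without Day4_creAF10_DMSO replicate 1, and 4 without MEF_creAF10 replicate 2. These fits assume that the lone library left in a group varies like the other groups.

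Of 432 member values under the other alternatives, 396 kept their direction and side of the threshold, 30 newly passed, 3 no longer passed and 3 changed sign. The sign changes were Hoxc4 with AF10 deletion in DMSO at -0.00055 with no filter, and Hoxc11 in the interaction at 0.0076 with no filter and 0.00018 with only the groups compared. Leaving out libraries changed the sign of 36 of 72 member values, 0 of them called. For AF10 deletion in MEFs these ranges were -0.50 to 1.30 (Hoxc11), -0.27 to 0.29 (Hoxc10), -0.63 to 0.68 (Hoxc9), -0.61 to 0.56 (Hoxc8), -0.28 to 0.44 (Hoxc6) and -0.20 to 0.41 (Hoxc4). For AF10 deletion on day 4 in DMSO they were -0.48 to 0.63 (Hoxc11), -0.32 to 0.15 (Hoxc10), -0.52 to 0.044 (Hoxc9), -0.15 to 0.52 (Hoxc8), -0.38 to 0.22 (Hoxc6), -0.26 to 0.47 (Hoxc5) and -0.18 to 0.20 (Hoxc4). For AF10 deletion in SGC0946 they were -0.0011 to 0.079 (Hoxc11), -0.77 to 0.40 (Hoxc8), -0.41 to 0.23 (Hoxc6), -0.094 to 0.80 (Hoxc5) and -0.50 to 0.25 (Hoxc4). For SGC0946 with AF10 intact they were -0.39 to 0.51 (Hoxc13), -0.39 to 0.66 (Hoxc11) and -0.33 to 0.28 (Hoxc9), and with AF10 deleted -0.34 to 0.59 (Hoxc11), -0.36 to 0.063 (Hoxc9) and -0.85 to 0.10 (Hoxc5). For AF10 deletion plus SGC0946 they were -0.035 to 0.87 (Hoxc13), -0.36 to 0.69 (Hoxc11) and -0.70 to 0.20 (Hoxc5). For day 4 against MEFs Hoxc11 ranged from -0.20 to 1.34 with AF10 intact and from -0.43 to 0.92 with AF10 deleted. For the interaction the ranges were -0.59 to 0.52 (Hoxc11), -0.25 to 0.22 (Hoxc10), -0.41 to 0.20 (Hoxc9), -0.95 to 0.23 (Hoxc8), -0.34 to 0.33 (Hoxc6), -0.24 to 0.70 (Hoxc5) and -0.51 to 0.24 (Hoxc4).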
